A study of Leucoraja erinaceus with 4 samples.

Results

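Of the 23105 assembled features of a skate skeletal transcriptome, 80 were strongly higher in the synarcual than in the post-synarcual at stage 28 and less than 2-fold higher there at stage 33. They were chosen from the measured values. A feature was taken when its stage 28 synarcual count was at least 50, its log2 region fold (synarcual over post-synarcual) was at least 2 at stage 28 and its log2 region fold was under 1 at stage 33. Of 118 features that met the stage 28 limits (1.12% of the 10582 with at least 50 counts in the higher stage 28 library), 97 also met the stage 33 limit. Another 17 of these were left out because their largest count was at least 200 and their geometric mean stage fold over the 2 regions at least 4 in either direction, of which 15 were higher at stage 28 and 2 at stage 33. Region folds at stage 28 and the upper limit at stage 33 therefore describe how the members were picked, and nothing below is a test of them.

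In skates and rays the foremost vertebrae are joined into 1 rigid cartilage, the synarcual, to which the skull and the pectoral girdle are joined, and the post-synarcual axial skeleton behind it keeps separate vertebrae. Cartilage of this kind is laid down as a matrix of collagens and proteoglycans by chondrocytes, and the surface of many shark and skate elements is later mineralised in small tiles. Total RNA came from embryos of the little skate, Leucoraja erinaceus, from males at stage 28 and at stage 33, with brain, spinal cord and axial muscle dissected away. Each of the 4 groups, synarcual and post-synarcual at each stage, is 1 library, no genotype or treatment is labelled, and the labels do not say how many animals entered a library. A difference between libraries therefore has no replicate check and no p-value is given. Intervals cover counting error only.

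The files pair no feature with a gene name, and 0 identifiers matched the 23250 genes of the RefSeq table of the species. No gene role, chromosome position or sequence is given for any member, and the labelled tissue was not checked against marker genes here. Members are called by their assembly identifiers, in which DN and c numbers mark a group of overlapping reads and g a gene within it. Total counts ran from 3922525 to 5092346 per library. Log2 values below are of CPM, the counts scaled to a library of standard size, after trimmed-mean (TMM) scaling with a prior count of 2 added. A fold is a ratio of scaled counts with its exact 95% Clopper-Pearson interval, and the deposited TPM, which corrects for length, is used to compare levels between features.

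At stage 28, members held 0.663% of all synarcual counts (0.655 to 0.671, exact 95% interval) and 0.104% of all post-synarcual counts (0.101 to 0.108). At stage 33 they held 0.106% (0.104 to 0.109) and 0.0784% (0.0759 to 0.0808). On TMM-scaled counts, their summed level in the synarcual was 6.61-fold that in the post-synarcual at stage 28 and 0.981-fold at stage 33. Without the 2 most abundant members the stage 33 value was 0.912-fold. The summed levels of the 2 regions were thus nearly equal at the later stage under this scaling. Unscaled, the share of 0.106% in the synarcual was above the 0.0784% in the post-synarcual. The sums were not taken under other scalings. Of the 80 members, 76 had their highest level in the stage 28 synarcual, 3 in that of stage 33 and 1 in the later post-synarcual. The choice favours the stage 28 synarcual and excludes the stage 28 post-synarcual, so these counts only describe it. The same share over all features was not taken. In these bulk libraries, fewer cells of a type and less RNA per cell cannot be told apart.

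Members had moderate counts in the stage 28 synarcual and few in the other libraries. The stage 28 synarcual count was 120 at the median, with quartiles of 75.8 and 186 and a range from 50 to 6924. The median count was 13.5 in the stage 28 post-synarcual and 5 in each region at stage 33. Per length, the median level in the stage 28 synarcual was 21.2 TPM, against 16.04 TPM over the 14668 features that reached 10 counts in 2 or more libraries. Those features did not have to hold 50 counts in that library. Another 8937 features met the other limits, including that of 50 counts, but were under 4-fold higher in the synarcual at stage 28. Their median was 25.4 TPM, above that of the members. Of the members, 55 passed the filter of 10 counts in 2 or more libraries. The other 25 did not, because their counts at stage 33 and in the stage 28 post-synarcual were low. Values just inside the limits were close to those just outside: the lowest log2 region fold of a member at stage 28 was 2.01 and the next feature outside had 1.98, with 11 members under 2.1 and 10 features between 1.9 and 2. At stage 33 the highest member value was 0.96 and the next feature outside had 1.01. The lowest stage 28 synarcual count of a member was 50, and the nearest feature below it had 49.

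**Figure D1:**
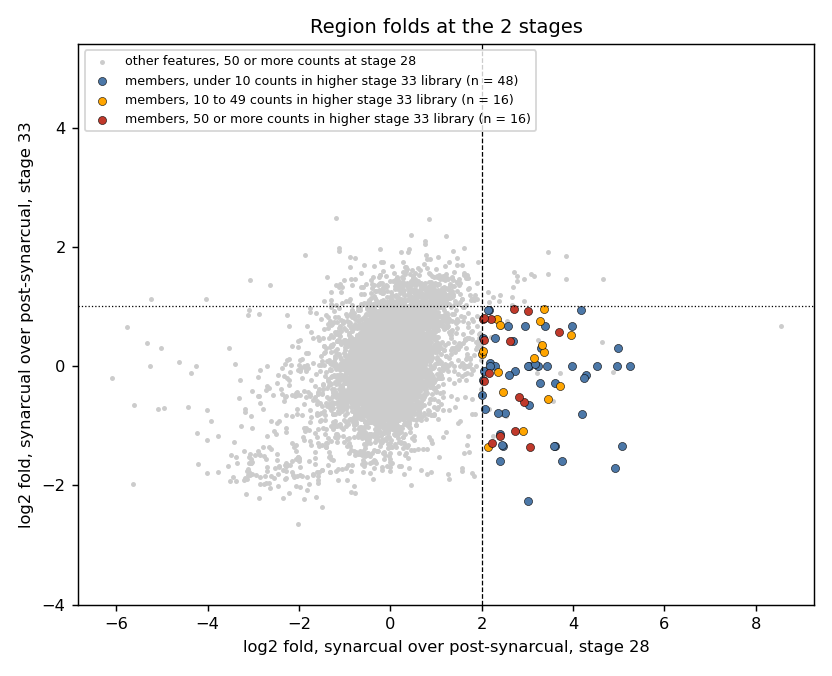
Log2 region fold at stage 33 against that at stage 28, 1 point per feature with at least 50 counts in the higher stage 28 library; dashed and dotted lines mark the limits of 2 and 1. The 80 members are coloured by the higher of their 2 stage 33 counts, and 48 of them had under 10 counts in both stage 33 libraries.

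Very low counts at stage 33 were the commonest pattern. In 48 of the 80 members (60%) both stage 33 libraries held under 10 counts, against 1.85% of the 9940 features with at least 50 counts in the stage 28 synarcual. In 24 members (30%) both held 3 counts or fewer, and 10 (12.5%) had 0 counts in both, which allows up to 0.769 CPM in the stage 33 synarcual and 0.986 CPM in the post-synarcual. Of the 14668 features kept, 1.7% held 3 counts or fewer in both and 0.375% held 0. For the 8937 features described above these shares were 0.336% and 0.0895%. Neither set is like the members here. A feature this low at stage 33 was kept only with at least 10 counts in both stage 28 libraries, and 25 members were not kept. None of the 8937 had 10 or fewer counts in the stage 28 post-synarcual, against 35 members. These shares are therefore set side by side only. The limit at stage 33 admits features too low to measure a region fold. The share with under 10 counts was therefore also taken over all 118 features that met the stage 28 limits, whatever they did later. There it was 53.4%, or 63 features. Of the 173 features whose stage 28 level was at least 4-fold higher in the post-synarcual, with at least 50 post-synarcual counts, 20 (11.6%) had under 10 counts in both stage 33 libraries. Over all 10582 features with at least 50 counts in the higher stage 28 library it was 2.12%. The share was thus above that of all features for both directions of the stage 28 region difference, and higher where the synarcual was the high region. The median count in the higher stage 28 library was 139 for the former and 172 for the latter, so the former started from fewer counts, and no test was made because features are not replicates.

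The members that were nearly gone at stage 33 had been modest at stage 28. Their stage 28 synarcual counts ran from 50 to 192, and all 48 lay under 200, since the choice removes more abundant features with a large stage difference. Their median count at stage 28 was 96.5 in the synarcual against 9 in the post-synarcual, then 1 against 2 at stage 33. TRINITY_DN37599_c0_g1 (1942 bp) had the lowest log2 stage fold in the synarcual, a rank that rests on a count of 0, with 184 synarcual against 31 post-synarcual counts at stage 28 and 0 against 2 at stage 33. Both regions lost it. In the synarcual it was at least 41.6-fold lower at stage 33, taking 3 counts in that library as the floor for a count of 0, and the lower limit of the exact interval was 33.5. In the post-synarcual the level at stage 28 was 8.37-fold that at stage 33 (2.13 to 72.2). TRINITY_DN30538_c0_g1 (2867 bp) gave 139 synarcual against 2 post-synarcual counts at stage 28, and 0 in both libraries at stage 33. It was close to confined to 1 of the 4 libraries, with a stage 28 ratio of 68.0 (18.5 to 567). Its synarcual level was at least 31.4-fold lower at stage 33 against the same floor, and the lower limit of the exact interval was 25.2.

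**Figure D2:**
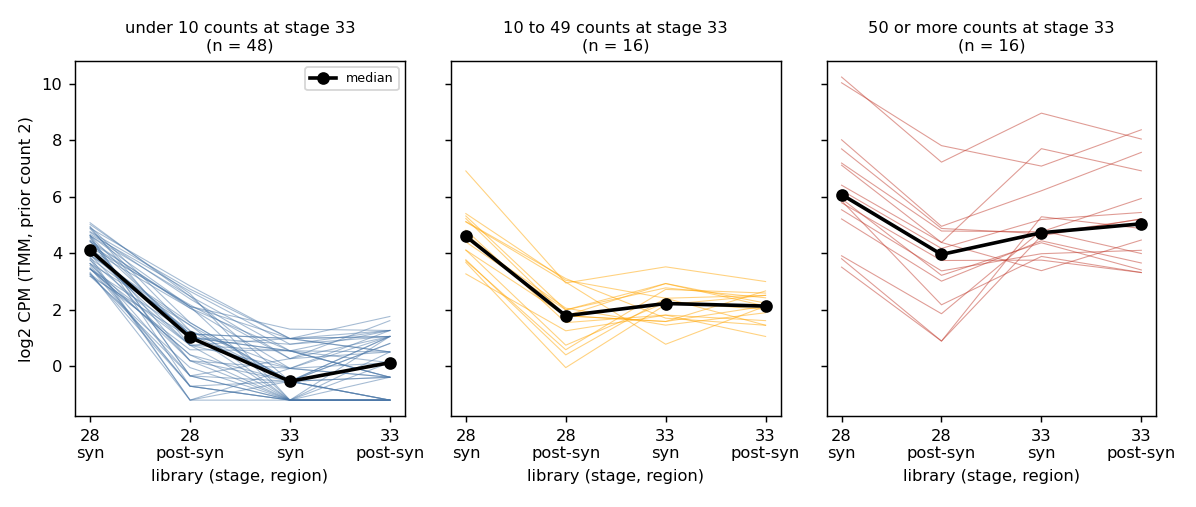
Log2 CPM (TMM, prior count 2) of each member in the 4 libraries, with thin lines for members and a black line for their median, in 3 panels by the higher stage 33 count. The first panel holds 48 members that end near the lower limit of the scale in both stage 33 libraries, and the other panels hold 16 each.

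The region folds of the 2 stages were separated by the choice itself, so their intervals only describe the counting error. The counting interval of the region fold at stage 33 lay wholly below that at stage 28 in 45 of the 80 members, against 11% of the 10582 features with at least 50 counts in the higher stage 28 library, and overlapped it or could not be computed in 35. All 16 members with at least 50 counts in a stage 33 library were among the 45, as were 12 of the 16 with 10 to 49 counts and 17 of the 48 with fewer. A 4-fold higher level in the synarcual at stage 33 lay outside the interval in 48 members. It lay within the interval, or no interval could be had, in 32, where this depth could not show whether the regions still differed that much. Among the features of the series with at least 10 counts in the higher stage 33 library, that interval lay wholly below 4-fold in 91.5%, and among such members in 30 of 32.

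**Figure D3:**
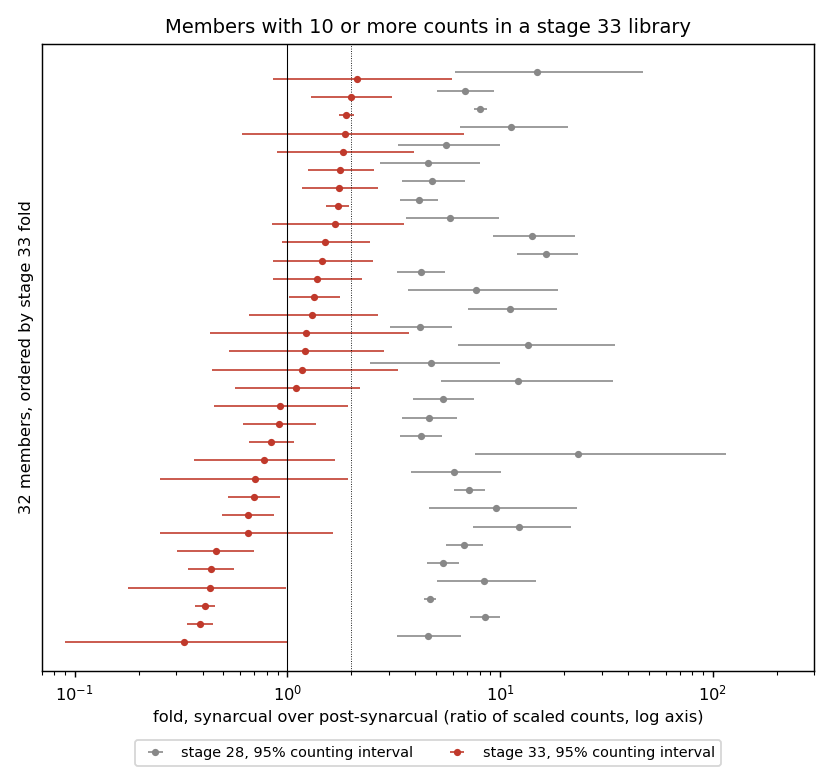
Region fold (ratio of scaled counts, log axis) with its 95% counting interval at stage 28 in grey and stage 33 in red, for the 32 members with at least 10 counts in a stage 33 library, ordered by the stage 33 fold. The solid line marks equal levels and the dotted line 2-fold, and the red points lie left of the grey ones because members were chosen so.

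The 16 members with at least 50 counts in a stage 33 library split by the direction of the later region fold. It was above 0 on the log2 scale in 8 of them and below 0 in 8. In 6 the counting interval lay wholly on the side of the synarcual and in 6 wholly on the side of the post-synarcual. Matching shares over all features were not taken, so nothing is read from these counts. Both splits are on TMM-scaled counts, and total counts moved the median log2 region fold of all features at stage 33 to 0.45. Of the 16, 4 (25%) had a synarcual level at least 2-fold below the post-synarcual, against 5.44% of the 9003 features of the series that could be compared at stage 33. None could be at least 2-fold higher, since the choice removed such features, which are 6.31% of the series. The choice also raises the share of lower values, so the 2 percentages are set side by side only.

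The most abundant member by count, TRINITY_DN23360_c0_g1 (1015 bp), kept a weaker excess in the synarcual. It had 6924 synarcual against 839 post-synarcual counts at stage 28, and 1935 against 799 at stage 33. The stage 28 synarcual stood far above the other libraries, and the stage 33 synarcual came second. Its region fold was 8.08 (7.52 to 8.69) at stage 28 and 1.89 (1.74 to 2.05) at stage 33, just under the limit of the choice. Scaled to total counts, the log2 region fold at stage 33 was 1.39, over that limit. In TPM it went from 2610 and 355 at stage 28 to 831 and 308 at stage 33. It alone held 25.1% of all member counts in the stage 28 synarcual.

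TRINITY_DN32596_c0_g1 (910 bp) had the highest stage 33 region fold among well counted members. Its counts were 348 and 50 at stage 28, synarcual first, and 79 and 31 at stage 33. The synarcual was the higher region at both stages, by 6.81-fold (5.06 to 9.36) and then 1.99-fold (1.30 to 3.12). Its post-synarcual level differed little between the stages, with a ratio of stage 33 over stage 28 of 1.15 (0.709 to 1.83), while the synarcual level was 2.99-fold lower at stage 33 (2.33 to 3.86). Scaled to total counts, its log2 region fold at stage 33 was 1.40, and its post-synarcual log2 stage fold was -1.02 in place of 0.19.

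Other members changed sides. For TRINITY_DN39349_c0_g1 (1752 bp), 1485 synarcual counts stood against 172 post-synarcual counts at stage 28, and 287 against 576 at stage 33. Its order of regions was thus opposite at the 2 stages. It was 8.45-fold higher in the synarcual at stage 28 (7.21 to 9.96) and 2.57-fold higher in the post-synarcual at stage 33 (2.23 to 2.97). Both regions took part: the synarcual level was 3.51-fold lower at stage 33 (3.09 to 3.99) and the post-synarcual level 6.20-fold higher (5.22 to 7.40). With total counts the log2 stage folds were -2.54 and 1.35, so which region changed more depends on the scaling.

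TRINITY_DN35469_c0_g2 (585 bp) had 6015 and 1259 counts at stage 28, synarcual first, and 527 and 1004 at stage 33. Per length it was the highest member of the stage 28 synarcual, with 4738 TPM, rank 13 of all 23105 features. At stage 33 its synarcual level was 480 TPM and its post-synarcual level 811 TPM, ranks 276 and 181. The region fold was 4.68 (4.40 to 4.97) at stage 28, and at stage 33 the post-synarcual was 2.44-fold higher (2.20 to 2.72). Here the synarcual level was 7.74-fold lower at stage 33 (7.08 to 8.47) and the post-synarcual level 1.48-fold higher (1.36 to 1.61). That rise in the post-synarcual turned to a log2 fold of -0.71 with total counts and -0.46 in TPM, while the fall in the synarcual remained, at -3.69 and -3.30.

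Its neighbour in the assembly, TRINITY_DN35469_c0_g1 (312 bp), was also a member and had 838, 153, 104 and 185 counts in the same order of libraries. The counts of the neighbour were 13.9, 12.2, 19.7 and 18.4 per 100 counts of TRINITY_DN35469_c0_g2. On TMM-scaled counts both features moved the same way between regions and stages. The post-synarcual log2 stage fold of the neighbour was above that of TRINITY_DN35469_c0_g2 by a similar amount under 3 scalings. It was 1.15 against 0.56 with TMM, -0.11 against -0.71 with total counts and 0.14 against -0.46 in TPM. Only in TPM did the directions thus differ. Both features share an assembly component, and the assembly may have divided the reads of 1 transcript between them, so they do not count as separate evidence. TRINITY_DN33141_c0_g1 (1063 bp), like the neighbour chosen after its values were seen, had 795 and 115 counts at stage 28 and 39 and 66 at stage 33, with the post-synarcual 2.17-fold higher at stage 33 (1.44 to 3.31). These 4 features were the members at least 2-fold lower in the synarcual at stage 33 among the 16 with 50 or more counts there. That call rests on the scaling: with libraries scaled to their total counts, none of the 80 members was 2-fold lower with at least 50 counts and the log2 region folds of the 4 were between -0.89 and -0.62, and in TPM between -0.85 and -0.59. On the other side, no member has a log2 region fold of at least 1 at stage 33, by the choice. With no minimum count, 13 of the 80 reached it with total counts, 10 in TPM and 8 with a prior count of 0.5. Such a fold can rest on very few counts. The shares over all features were not taken, so nothing is read from these numbers. Total counts and TPM moved the median log2 region fold of all features at stage 33 to 0.45 and 0.48, and the 4 features had the same direction under both.

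The difference between the region folds of the 2 stages is, by arithmetic, the log2 stage fold in the post-synarcual minus that in the synarcual. Across the 80 members the median log2 fold of stage 33 over stage 28 was -3.69 in the synarcual, with quartiles of -4.47 and -2.45. It was -3.64 with the 14 members at 0 counts in the stage 33 synarcual placed at the floor of 3 counts. In the post-synarcual the median was -0.13, with quartiles of -1.13 and 0.66, and -0.13 over the 70 members with more than 3 counts in the higher post-synarcual library. Members were low in the stage 28 post-synarcual, 35 of them with at most 10 counts, which leaves little room for a fall there, and over the 13 with at least 50 counts in the higher post-synarcual library the median was 0.82. The fold at stage 28 and the stage fold of a region share a library, and members were taken for a high value in that library, so that a fall in the synarcual is partly built into the choice.

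At least a 2-fold fall in the synarcual was seen in 75 of 80 members (93.8%), against 16.1% of the 10888 features that could be compared. A fall of at least 4-fold was seen in 62 members (77.5%) and of at least 16-fold in 32 (40%). Over the 10858 features kept with at least 50 counts in the higher synarcual library, these shares were 4.08% and 0.654%. Of the 118 features chosen at stage 28 alone, 105 (89%) fell. Of the 173 features at least 4-fold higher in the stage 28 post-synarcual, 50 (28.9%) were at least 2-fold lower in the post-synarcual at stage 33 and 87 (50.3%) at least 2-fold higher. Of the 48 mirror features among them, chosen as the members were but with the regions exchanged, 24 (50%) fell at least 2-fold there by stage 33 and 6 (12.5%) rose. Both sets were chosen for a high value in the stage 28 post-synarcual. The number of members with a synarcual fall was 76 under scaling to total counts and 76 in TPM.

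Only 13 members had at least 50 counts in the higher post-synarcual library. Of these, 6 (46.2%) were at least 2-fold higher there at stage 33, against 15.8% of the 10515 features compared, 7 were within 2-fold and 0 were at least 2-fold lower, against 15.6%. These post-synarcual numbers depend on the scaling. With total counts, which moved the median log2 stage fold of all features to -1.25 in the post-synarcual and -0.74 in the synarcual, 4 were higher and 3 lower, and the median over the 80 members was -1.06 in the post-synarcual and -4.39 in the synarcual. Members were also taken for a low value in the stage 28 post-synarcual, which favours a rise, and 2 of the 6 had 8 counts there and reached 50 only at stage 33, so nothing is read from the 2 percentages.

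**Figure D4:**
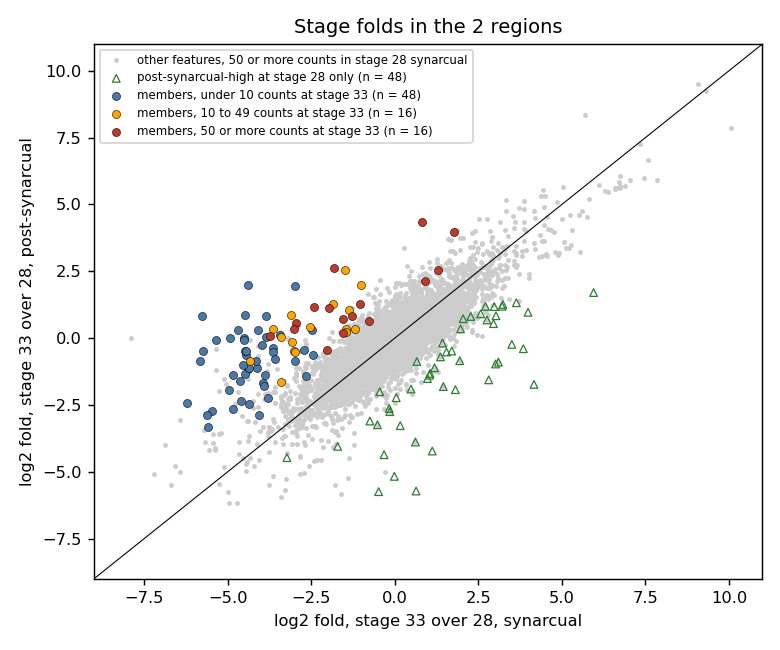
Log2 fold of stage 33 over stage 28 in the post-synarcual against that in the synarcual, 1 point per feature with at least 50 counts in the stage 28 synarcual, with triangles for the 48 mirror features; the line marks equal folds. The 80 members lie above the line by the way they were chosen, and 75 of them lie at or left of -1 on the synarcual axis.

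A few members did not fall in the synarcual. TRINITY_DN40982_c0_g1 (1251 bp) gave 63 synarcual against 8 post-synarcual counts at stage 28, and 151 against 88 at stage 33. It rose in both regions, by 3.54-fold in the synarcual (2.62 to 4.82) and by 20.4-fold in the post-synarcual (9.90 to 48.6). With total counts these rises were smaller, with log2 folds of 1.06 and 2.83. The region fold went from 7.71 (3.68 to 18.6) to 1.34 (1.02 to 1.76). TRINITY_DN35676_c0_g1 (4456 bp) gave 486 synarcual against 115 post-synarcual counts at stage 28, and 809 against 366 at stage 33. Its synarcual level was 2.46-fold higher at stage 33 (2.19 to 2.75) and its post-synarcual level 5.89-fold higher (4.77 to 7.33). With total counts these log2 stage folds were 0.55 and 1.28. Its log2 region folds were then 1.98 at stage 28 and 1.25 at stage 33, outside both limits of the choice. TRINITY_DN40982_c0_g1 and TRINITY_DN35676_c0_g1 were the members whose synarcual level rose at least 2-fold (2.5%). With total counts 1 of these 2 did. The share was 18.5% over the features compared and 7.78% over the 8937 that met the other limits. Members were taken for a high value in the stage 28 synarcual, which disfavours a rise, so nothing is read from these shares.

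TRINITY_DN30701_c0_g1 (1369 bp) had the largest rise in the post-synarcual. Its counts were 78 and 8 at stage 28, synarcual first, and 94 and 112 at stage 33. The stage 28 post-synarcual was the 1 low library of the 4. There the level was 25.9-fold higher at stage 33 (12.7 to 61.5), against 1.78-fold in the synarcual (1.30 to 2.43). With total counts the log2 folds were 3.17 and 0.09. In the other direction, TRINITY_DN5320_c0_g1 (1217 bp) was the 1 member with at least 50 post-synarcual counts and a lower post-synarcual level at stage 33, with 73 counts and then 29, a ratio of stage 28 over stage 33 of 1.36 whose interval (0.873 to 2.17) includes 1. With total counts its log2 stage fold there was -1.64. Other members with at least 50 post-synarcual counts were then below 0 too. Among them were TRINITY_DN23360_c0_g1 (-0.45), TRINITY_DN35469_c0_g2 (-0.71), TRINITY_DN35469_c0_g1 (-0.11), TRINITY_DN32596_c0_g1 (-1.02) and TRINITY_DN33141_c0_g1 (-1.16). The synarcual counts of TRINITY_DN5320_c0_g1 were 315 and then 51, a level 4.19-fold lower at stage 33 (3.11 to 5.74).

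Members were shorter than the features they were compared with. Their median length, by the stage 28 synarcual file, was 1589.5 bp with quartiles of 1166 and 2247 bp, against 2003 bp over the 14668 features kept. The 8937 features that met the other limits but were under 4-fold higher in the synarcual at stage 28 had a median of 2362 bp, and 111 features whose region fold was at least 2 at each stage, with 50 or more counts in the higher library, had a median of 2474 bp. Features over 2000 bp made up 31.2% of members, 68.5% of those 111 and 50.1% of all kept. For the 48 mirror features the median was 1976 bp. The 118 features chosen at stage 28 alone were about as short as the members, with a median of 1608 bp and 29.7% over 2000 bp. Length is not part of the choice, but longer features collect more counts, and members had a median of 120 counts in the stage 28 synarcual against 170 in the 8937. The part of that in the difference of length was not tested.

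**Figure D5:**
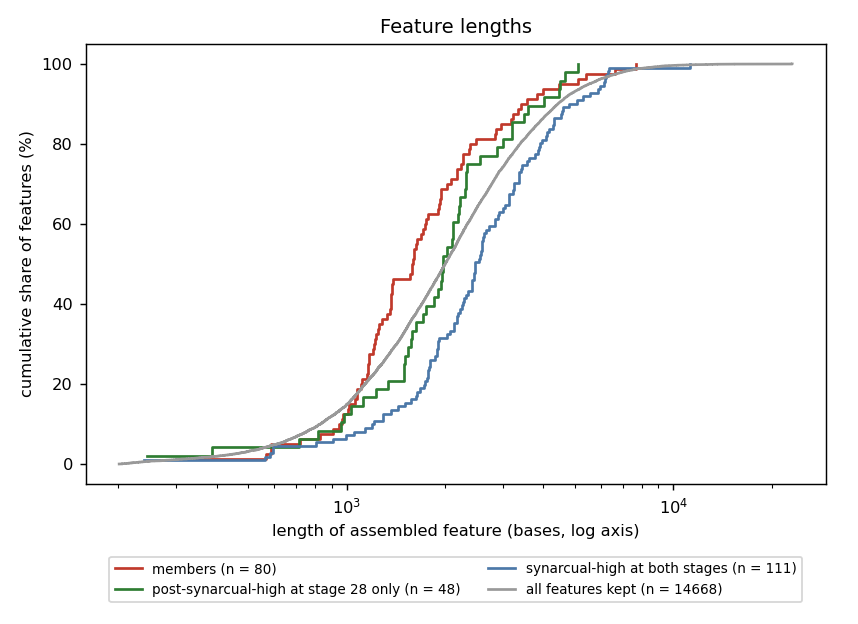
Cumulative share of features by length in bases (log axis) for the 80 members, 48 mirror features, 111 features with a higher synarcual level at both stages and all 14668 features kept. The curve of the members lies left of the others over most of the range, with a median of 1589.5 bp.

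A single transcript was assembled for 72 of the members (90%), against 79% of features kept and 74.9% of the 8937. Counts were not whole as deposited in 2 members (2.5%), against 3.43% of features kept. An assembly component was shared with another feature by 10 members (12.5%), against 15.3%. These 10 lie in 8 components, 2 of which hold 2 members each. The components hold 9 further features, of which 1 had at least 50 counts at stage 28, and its log2 region fold there was 0.63. Those with fewer counts were mostly above 0, up to 2.71 for TRINITY_DN41144_c1_g2 on 34 synarcual against 3 post-synarcual counts. Those below 0 had -0.12 and -0.01. Counts this low measure a fold poorly.

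For 1 abundant member the length correction changed the size of the region fold. TRINITY_DN38156_c12_g6, chosen after its values were seen, has 3 transcripts and gave 1187 synarcual against 163 post-synarcual counts at stage 28, and 99 against 111 at stage 33. By counts it was 7.13-fold higher in the synarcual at stage 28 (6.05 to 8.45). In TPM it was 930 against 423, a ratio of 2.199. The mean transcript length that the files give for it was 586 bases in the stage 28 synarcual and between 318 and 323 bases in the other libraries, so the transcripts credited with its reads differed there. Of the 77 members with TPM above 0 in both stage 28 libraries, 7 had a TPM ratio under 4, and this was the 1 under 3.

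Members and mirror features differed in what remained at stage 33. Members had medians of 1.28 and 1.64 CPM in the stage 33 synarcual and post-synarcual, and mirror features 13.7 and 17.8 CPM. Of the 48 mirror features, 10 (20.8%) had under 10 counts in both stage 33 libraries. The 111 features with a higher synarcual level at both stages had to hold at least 50 counts at stage 33 to be chosen. Their median log2 stage fold in the synarcual was 0.36, and in the post-synarcual 0.50. No test of these differences was made, since all sets were chosen on the 4 libraries compared.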

How the data were processed

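Per the submitters' processing notes, Bowtie2 and RSEM were used, in versions not given in the sources used here. RSEM's estimated count, TPM and FPKM per assembled feature were deposited for each library, per the file headers. The authors' estimated counts are not normalized, and 1.66% to 1.89% of a library's values were fractional (tolerance 1e-06). The deposited TPM are corrected for length and depth. The deposited FPKM were not used. The deposited series table and the sample files differed by at most 0. The TruSeq kit used was unstranded, per the labels' protocols, so sense and antisense reads cannot be told apart.

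Counts were rounded. TMM factors (edgeR 4.0.16, R 4.3.3) were computed on the 14668 features that reached 10 counts in 2 or more libraries and were 1.39, 1.44, 0.831 and 0.599 in the order stage 28 synarcual, stage 28 post-synarcual, stage 33 synarcual and stage 33 post-synarcual. Log2 CPM of all features used the sums of those kept as library sizes and a prior count of 2. A 0 was taken as up to 3 counts. PCR copies of a molecule are counted apart, so intervals cover counting error only. With 1 library per group no test was made. A fold was called at 2-fold or more where the higher library held 50 or more counts. Alternatives were total counts, DESeq2 1.42.0 size factors, log2(TPM + 0.5), a prior count of 0.5, no filter and other limits. The code for the choice was run on simulated counts with a stage 28 region difference well above the limit and counting error only. That run does not show how well features near the limits, or with few counts at stage 33, are chosen.

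The members, sets and alternatives were chosen with earlier results of these data known. At most 2 identifiers per direction of each comparison were named: the members with the largest stage 28 synarcual count, the lowest and highest region fold at stage 33, and the largest rise and fall in each region, given 50 or more counts in the higher library. The classes by stage 33 count were chosen after the values were seen.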

Additional observations from a re-analysis of the deposited data

Results flagged for a closer look

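In 4 members the synarcual was the higher region at stage 28 and the lower one at stage 33, by at least 2-fold each time and with 50 or more counts in the higher library. The series holds 8 such features, and their share of all features was not taken. The limits on the region folds favour such features among members, so the 2 counts are set side by side only. The log2 region fold at stage 33 was -1.36 for TRINITY_DN39349_c0_g1, -1.29 for TRINITY_DN35469_c0_g2, -1.18 for TRINITY_DN35469_c0_g1 and -1.08 for TRINITY_DN33141_c0_g1, against 3.06, 2.22, 2.40 and 2.73 at stage 28. The call at stage 33 rests on the scaling. With total counts and in TPM, 0 of the 80 members were 2-fold lower with at least 50 counts. TRINITY_DN35469_c0_g1 and TRINITY_DN35469_c0_g2 share an assembly component and do not count as separate evidence. With 1 library per group, the change between stages was not tested.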

How the results depend on the processing

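Members are chosen anew under each alternative here. From 80, the number of members went to 58 with libraries scaled to total counts and 56 in TPM, to 46 with at least 100 counts in the stage 28 synarcual and to 49 with a log2 region fold of at least 2.5 at stage 28. Under those last 2 limits, 44 and 47 members had a synarcual level at least 2-fold lower at stage 33. Members at least 2-fold higher in the post-synarcual at stage 33 numbered 3 in TPM and 3 with the limit of 2.5. Members at least 2-fold lower in the synarcual than in the post-synarcual at stage 33 numbered 0 with total counts, 0 in TPM and 2 with the limit of 2.5. The median log2 stage fold was -4.66 with total counts and -4.25 in TPM in the synarcual, and -1.06 and -0.70 in the post-synarcual. Members held 0.206% of stage 28 synarcual counts with total counts, 0.604% with at least 100 counts and 0.386% with the limit of 2.5. With at least 100 counts, 23 members had under 10 counts in both stage 33 libraries. With total counts TRINITY_DN23360_c0_g1 was over the stage 33 limit, at a log2 region fold of 1.39. It held 25.1% of the counts of the 80 members in the stage 28 synarcual. TRINITY_DN35469_c0_g2 had log2 stage folds of -3.69 (synarcual) and -0.71 (post-synarcual) with total counts. TRINITY_DN33141_c0_g1 had -4.46 and -1.16. Both thus passed the 4-fold geometric mean at which features with 200 or more counts were left out. TRINITY_DN35469_c0_g2 and TRINITY_DN23360_c0_g1 held 46.9% of the counts of the 80 members in the stage 28 synarcual. For TRINITY_DN5320_c0_g1 the log2 region fold at stage 28 was then 1.998, under the limit of 2. The cause of the other shifts was not tested, other than that stricter limits leave fewer features. Counting the members under 10 counts again and counting once per assembly component (78) were chosen after seeing the data. DESeq2 size factors gave 82 members, 80 of them shared. No paired analysis was possible because each group has 1 library, and for the same reason no library could be left out. At this depth a 4-fold region difference at stage 33 lay within the counting interval, or had none, in 32 members.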
